A study of Mus musculus with 267 samples.

Results

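In C57BL/6J (C57) bone marrow-derived macrophages (BMDMs) treated with interleukin-4 (IL-4), 1684 open chromatin regions carried more acetylation of lysine 27 on histone H3 (H3K27ac) at 6 h, but not at 1 h or at 24 h, by a fixed fold rule. These 1684 regions are 2.16% of the 77955 regions of 1000 bp tabulated in the time course. A region was taken when its mean of 2 libraries plus 1 was at least 2.5-fold higher at 6 h than in untreated (basal) cells, with the larger mean at least 16 tags per 10000000 tags of the library, and when the same rule was not met at 1 h or at 24 h. The regions were thus chosen by the H3K27ac values of the 8 time-course libraries, which are described here without a test. The rise at 6 h was met by 4356 regions whatever happened at the other times, and 902 of them were raised at 1, 6 and 24 h. A further 233 regions were raised only at 1 h and 836 only at 24 h.

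Chromatin immunoprecipitation with sequencing was performed in BMDMs grown from the marrow of female mice with macrophage colony-stimulating factor and given IL-4 at 20 ng/mL for 1, 6 or 24 h, or left untreated. The wild-type C57 groups used here hold 2 H3K27ac libraries at each of the 4 times, 4 basal, 1, 2 and 3 RNA polymerase II (Pol II) libraries at 0, 1, 6 and 24 h, 2 EGR2 libraries at each time, and 2 libraries each of H3K4me2 and H3K4me3 in basal cells and at 24 h. Wild-type BMDMs of 4 other strains gave 2 basal and 2 24 h H3K27ac libraries each: SPRET/EiJ (SPRET), BALB/cJ (BALB), PWK/PhJ (PWK), and NOD/ShiLtJ (NOD). Egr2flfl BMDMs carry floxed Egr2 alleles without Cre, and LyzMCreEgr2flfl BMDMs carry the same floxed alleles with Cre driven by the lysozyme M promoter, which is active in myeloid cells but need not recombine every cell, with 2 basal and 2 24 h H3K27ac libraries per genotype. The study calls its ChIP replicates biological without saying here whether the libraries of a group came from separate mice, so the p-values below measure the spread between libraries, which may be technical.

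The H3K27ac time-course libraries held 11780899 to 29050468 tags and the Pol II libraries 7796479 to 21973750. The second H3K27ac library at 1 h stood apart, with 20.5% of its tags inside the regions where the other 7 held 41.2% to 69.7%. Its median over the 1684 regions was 7.92 tags, against 28.6 in the first 1 h library. Without it, 875 regions passed the rule, of which 874 were among the 1684 (51.9% of them), so the others of the set are called absent at 1 h through that library. Each result below is given over all 1684 regions and, where it is a leading count, also over these 874. The first of the 4 basal Pol II libraries also stood apart, with a median of 18.7 tags over the 1684 regions, where the others had 8.83, 5.90 and 6.08. The macrophage identity of the cells was visible in basal H3K27ac at gene starts: all 8 macrophage markers checked had an open region there, with summed levels of 5041 and 4766 tags in the 2 libraries, while 0 of 5 T cell and 0 of 3 mast cell markers had one. Of the remaining markers, 2 of 4 for B cells summed to 85.5 and 94.8 tags, and 1 of 3 for endothelium to 155 and 39.9. In chromatin from a whole culture, a mark carried by fewer cells cannot be told apart from less of the mark per cell.

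As background, H3K27ac is deposited on nucleosomes beside active enhancers and promoters and is lost within hours when the acetyltransferases leave, so it can follow a passing signal. IL-4 binds its receptor and activates Janus kinases, which phosphorylate the transcription factor STAT6. STAT6 dimers bind DNA within minutes and switch on alternative activation genes such as Arg1 and Mrc1, together with the factors PPARg and EGR2, which act later, and feedback inhibitors such as the SOCS proteins. AP-1 and C/EBP factors bind macrophage enhancers beside the lineage factor PU.1.

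The central 200 bases of 6 of the regions are shown because they were among those where large H3K27ac folds, the Pol II rise or the STAT6 and AP-1 letters discussed below met. They are taken from the GRCm38 (mm10) reference, + strand, 5′ to 3′. Capitals mark matches on either strand to the STAT6 letters (TTC and GAA separated by 4 or 3 bases), to the AP-1 letters TGANTCA, to the C/EBP letters TTGCNNAA and to the EGR letters GCGTGGG.
Pmch, intergenic, chr10:88024888-88025087: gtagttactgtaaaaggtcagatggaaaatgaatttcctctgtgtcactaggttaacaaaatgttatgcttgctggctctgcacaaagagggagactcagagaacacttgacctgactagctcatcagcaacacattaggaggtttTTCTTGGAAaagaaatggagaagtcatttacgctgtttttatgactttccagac
Rora, intergenic, chr9:68347548-68347747: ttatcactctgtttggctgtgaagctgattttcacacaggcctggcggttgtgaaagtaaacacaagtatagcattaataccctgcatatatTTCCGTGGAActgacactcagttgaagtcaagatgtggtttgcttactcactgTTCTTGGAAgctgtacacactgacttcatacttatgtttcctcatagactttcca
Mrc1, intron 1, chr2:14231530-14231729: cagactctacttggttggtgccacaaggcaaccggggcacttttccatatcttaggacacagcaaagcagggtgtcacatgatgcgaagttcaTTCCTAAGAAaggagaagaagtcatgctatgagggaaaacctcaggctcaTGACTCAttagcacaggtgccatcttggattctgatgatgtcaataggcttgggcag
Atp6v0d2, intron 1, chr4:19918984-19919183: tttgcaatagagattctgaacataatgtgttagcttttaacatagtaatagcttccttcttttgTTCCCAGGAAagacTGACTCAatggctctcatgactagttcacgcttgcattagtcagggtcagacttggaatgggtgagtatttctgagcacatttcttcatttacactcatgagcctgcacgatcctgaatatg
Itgb3, intron 1, chr11:104611734-104611933: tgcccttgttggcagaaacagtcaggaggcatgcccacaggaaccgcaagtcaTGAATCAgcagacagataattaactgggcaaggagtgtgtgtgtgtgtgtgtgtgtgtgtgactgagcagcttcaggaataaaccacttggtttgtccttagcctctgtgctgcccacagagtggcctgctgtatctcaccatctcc
Tgm2, intergenic, chr2:158178740-158178939: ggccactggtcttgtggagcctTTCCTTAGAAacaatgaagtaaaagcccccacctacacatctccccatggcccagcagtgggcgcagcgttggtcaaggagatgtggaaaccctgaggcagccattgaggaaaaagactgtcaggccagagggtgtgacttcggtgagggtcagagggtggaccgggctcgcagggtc

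The Rora, Pmch, Mrc1, Atp6v0d2 and Tgm2 sequences hold STAT6 letters, and Mrc1 and Atp6v0d2 hold AP-1 letters close by. The Itgb3 sequence holds AP-1 letters alone. Rora lies 306139 bp upstream of the gene start it is named for, and Pmch 66085 bp upstream, so those names give only the nearest annotated start.

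Across the 1684 regions the median H3K27ac level was 11.2 tags in basal cells, 18.8 at 1 h, 39.7 at 6 h and 18.5 at 24 h, which gives a typical rise and a partial return. The median fold over basal was 1.75 at 1 h, 3.25 at 6 h and 1.79 at 24 h. Per library, the medians were 13.6 and 7.84 in basal cells, 28.6 and 7.92 at 1 h, 40.8 and 38.3 at 6 h, and 22.1 and 16.1 at 24 h. Both 6 h libraries were above both basal and both 24 h medians, and the first 1 h library came closest to them. The name of the set is stricter than most of its members. Only 216 regions (12.8%) stayed under 1.5-fold at both 1 h and 24 h and 741 (44.0%) under 2-fold at both, and at 24 h the mean was still above basal in 1567 (93.1%). A further 247 regions at 1 h and 235 at 24 h reached 2.5-fold but missed the minimum of 16 tags. In 816 regions (48.5%) both 6 h libraries exceeded all 6 libraries of the other times, and among the 874 regions that do not depend on the second 1 h library this held for 576 (65.9%). The same libraries chose the set, so these shares only describe it, and no share over all regions is given. The 6 h fold was at least 4 in 478 regions and at least 10 in 76.

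**Figure D1:**
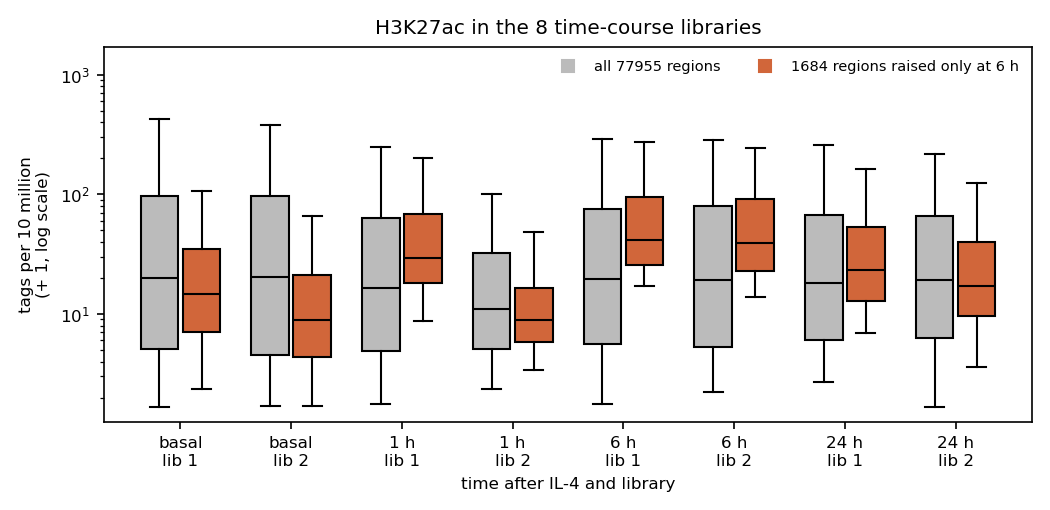
H3K27ac in each of the 8 time-course libraries (tags per 10000000 plus 1, log axis) over all 77955 regions (grey) and the 1684 regions raised only at 6 h (orange). Boxes span the quartiles with the median as a line and whiskers reach the 5th and 95th percentiles. The 6 h medians of 40.8 and 38.3 tags stand above those of the other orange boxes, and the second 1 h library (7.92) sits far below the first (28.6).

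Large folds belonged to regions that were nearly unmarked before IL-4. Intergenic chromatin upstream of Pmch (chr10:88024487-88025487) read 1.36 and 0 tags in basal cells, 17.8 and 6.54 at 1 h, 107 and 46.2 at 6 h, and 15.3 and 3.28 at 24 h. Both 6 h libraries were above the other 6, a condition by which the regions named for the largest folds were picked. The distal region upstream of Rora, which encodes a nuclear receptor (chr9:68347147-68348147), went from 0.68 and 0 to 73.9 and 40.8 tags at 6 h and back to 12.7 and 7.22. A pair of regions at Kcnd3, a potassium channel gene, the first 74 bp upstream of its start and the other 14229 bp upstream, rose 27.4-fold and 26.4-fold, from at most 1.36 basal tags to between 24.6 and 47.5 at 6 h. At the 24 h time these regions still read 8.53 to 22.1 tags, so their return was partial.

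The strongest regions at 6 h behaved differently, since they were already acetylated. Intron 1 of Dusp4, a phosphatase of MAP kinases (chr8:34809179-34810179), read 374 and 121 tags in basal cells, 827 and 160 at 1 h, 777 and 511 at 6 h, and 413 and 206 at 24 h. The first 1 h library was above both 6 h libraries there, so its place in the set rests on the second. Intron 1 of Atp6v0d2, a subunit of the vacuolar proton pump of osteoclasts and macrophages (chr4:19918583-19919583), read 248 and 124, then 532 and 161, 722 and 438, and 447 and 321 tags at the same times. An intergenic region 172330 bp upstream of the cystine transporter gene Slc7a11 (chr3:50615444-50616444) had 227 and 103 tags in basal cells, 606 and 406 at 6 h, and 452 and 350 at 24 h. At Mtmr7, the 24 h libraries (459 and 413 tags) overlapped those at 6 h (614 and 434), a 2.26-fold level against 2.71-fold. For regions of this kind the call of a rise confined to 6 h turns on the threshold of 2.5. The members just inside it, in Tyw1, near Ccdc90b and in Pfkfb4, each had a 6 h fold of 2.5, with 24 h folds of 2.47, 2.39 and 1.74. The regions just outside it, near Wdr59, Ahr and Dnajc10, had 6 h means of 156, 55.0 and 30.3 tags over basal means of 62.0, 21.4 and 11.5.

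**Figure D2:**
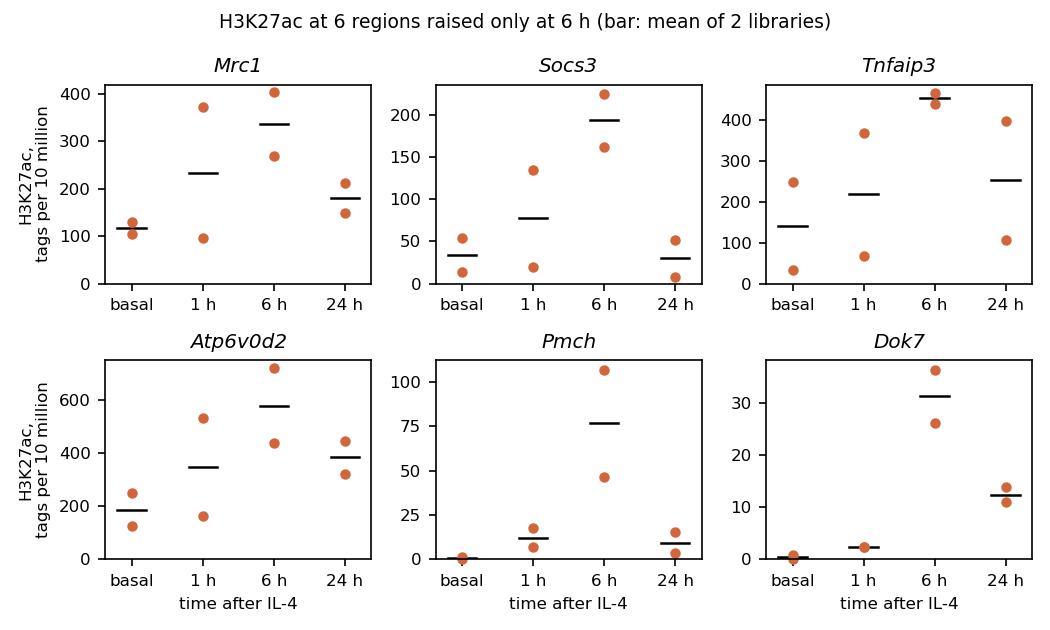
H3K27ac at 6 of the regions in the 8 C57 time-course libraries (tags per 10000000 in 1000 bp, linear axes that start at 0 and differ between panels). Points are libraries and bars their means. At Pmch and Dok7 both 6 h points stand clear of the rest, and Pmch was picked among regions where this held. At Mrc1 the first 1 h library (371 tags) lies between the 6 h libraries (404 and 268).

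The regions were mostly distal. Introns held 891 (52.9%, against 43.5% of all 77955 regions), intergenic chromatin 597 (35.5% against 32.8%) and promoters 97 (5.76% against 16.1%). The median distance to the nearest gene start was 22940 bp, where all regions had 14788 bp. Their accessibility was near that of all regions: 1238 (73.5%) already held an ATAC-seq peak, a site of accessible DNA, in basal cells, as did 72.1% of all regions. No basal peak was listed in 446 (26.5% against 27.9%), and 36 (2.14% against 2.48%) had one at 6 h alone. The central 200 bases were less rich in CpG, with a mean of 3.83 CpG per region against 6.07 and a median GC content of 50.0% against 52.0%.

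Many of the regions were neighbours, so they are not 1684 separate events. The windows of 292 overlapped that of another, and 613 (36.4%) had another member within 10 kb, which leaves 1316 separate loci. At 11 loci, 5 or more members followed each other within this distance. Plxnd1, which encodes a plexin receptor, and its neighbour H1foo held 11 over 25.9 kb (chr6:115968536-115994404). Their median H3K27ac was 26.5 and 16.4 tags in basal cells, 65.5 and 87.0 at 6 h, and 28.9 and 17.1 at 24 h, close to the basal level. Fam129b held 9 (medians of 14.9 and 31.4 tags in basal cells, 64.7 and 104 at 6 h, 38.2 and 47.2 at 24 h). At Socs3, all 7 open regions between chr11:117962988 and 117970596, from beyond the gene's end through its intron to the promoter, were members. Their medians were 21.7 and 10.7 tags in basal cells, 29.4 and 14.1 at 1 h, 35.4 and 63.9 at 6 h, and 34.8 and 9.84 at 24 h, with the 24 h libraries on either side of the basal ones. At Lgals3, the galectin-3 gene, 6 members had 59.7 and 23.2 tags in basal cells, 179 and 94.6 at 6 h, and 115 and 38.1 at 24 h. The remaining runs lay at Cyth1, Slc41a3, Adamts1, Gse1, Myh9, Smurf1 and Cebpb, with 5 or 6 members each.

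Among 30 genes of alternative activation, 9 held or were nearest to a member, and 13 of the 264 open regions assigned to the list (4.92%) were members, beside 2.16% of all regions. These lists and their counts describe the set and carry no test. Intron 1 of Mrc1, the mannose receptor gene (chr2:14231129-14232129), had 105 and 130 tags in basal cells, 371 and 95 at 1 h, 404 and 268 at 6 h, and 211 and 149 at 24 h. Both 6 h libraries exceeded the basal and 24 h ones, while the 1 h libraries lay on either side. The promoter of Ptgs1, which encodes cyclooxygenase-1, had 5.43 and 63.5 tags in basal cells, 187 and 120 at 6 h, and 58.6 and 98.5 at 24 h. A region upstream of Tgm2, the tissue transglutaminase gene (chr2:158178339-158179339), read 2.04 and 2.14, 6.96 and 3.44, 20.0 and 25.6, and 17 and 14.4 tags at the 4 times. Single members at Chil3, the chitinase-like protein Ym1, at Il4i1 and at Tmem26 reached 6 h means of 30.0, 85.2 and 56.6 tags, and Cd83 and Irf4 had 3 and 2 members.

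In the list of IL-4 receptor signalling and feedback, 9 of 26 genes had members (18 of 379 regions, 4.75%), and Socs3 alone supplied 9. The intron of Socs3, an inhibitor of Janus kinases (chr11:117967975-117968975), read 54.3 and 13.6 tags in basal cells, 135 and 20.0 at 1 h, 162 and 225 at 6 h, and 51.8 and 7.88 at 24 h. Both 6 h libraries were above the other 6, and the higher and the lower 24 h library were each below the higher and the lower basal one. Upstream of Jak1, one of the kinases of the receptor, the values were 13.6 and 4.99, 36.3 and 1.38, 50.8 and 65.1, and 22.9 and 11.8 tags. Upstream of Ptpn1, a tyrosine phosphatase that acts on Janus kinases, the basal libraries were far apart (138 and 11.4 tags), and the lower 6 h library (155, beside 302) was only slightly above the higher basal one. The first 1 h library (325 tags) was above both 6 h libraries and the second read 32, so the place of this region in the set rests on the second. Members at Socs1 and Socs2, further feedback inhibitors, were weak, with 6 h means of 17.3 and 24.9 tags.

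Of 38 inflammatory and NF-kB genes 9 had members (13 of 350 regions, 3.71%). Intron 2 of Tnfaip3, which encodes the NF-kB inhibitor A20 (chr10:19007534-19008534), read 248 and 33.5 tags in basal cells, 368 and 66.4 at 1 h, 464 and 439 at 6 h, and 397 and 107 at 24 h. The basal and 24 h pairs each differed several-fold within the pair, while the 6 h pair was close. Upstream of Il1rn, the interleukin-1 receptor antagonist gene, the 6 h libraries (141 and 114 tags) exceeded all others, the highest of which was 103 at 1 h. Members at Ccl7, a monocyte chemokine, at Ier3 and at Nos2 had 6 h means of 90.9, 97.5 and 43.5 tags. Macrophage lineage genes gave 16 members of 373 regions (4.29%, 7 of 28 genes). Among them the region upstream of Mmp12, the macrophage elastase gene, read 55.6 and 117 tags in basal cells, 390 and 159 at 6 h, and 93.4 and 245 at 24 h, and intron 1 of Csf2rb, the shared receptor chain for GM-CSF, read 72.6 and 47.1, then 303 and 177, then 179 and 82.7. The Mmp12 pairs overlapped between 6 h and 24 h. Spi1, the gene of PU.1, held 2 members, the stronger with 178 and 185 tags at 6 h over 91.6 and 39.9.

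The other lists held fewer. Lipid metabolism and nuclear receptor genes gave 9 of 310 regions (2.90%), among them intron 1 of Rxra, the partner receptor of PPARg, with 97.8 and 124 tags at 6 h over 44.1 and 9.98. Intron 2 of the cholesterol exporter gene Abcg1 had 200 and 186 tags at 6 h over 80.7 and 62.0, and 177 and 138 at 24 h. AP-1, EGR and other immediate-early factor genes gave 11 of 566 regions (1.94%), near the 2.16% of all regions, with Klf4, a factor of alternative activation, at 114 and 87.0 tags at 6 h over 38 and 25.7. Growth and survival genes gave 8 of 385 (2.08%), of which 4 lay at the kinase gene Pim1, where intron 5 read 260 and 181 tags at 6 h over 137 and 30.7 in basal cells.

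Pol II, which the rule did not use, was higher at 6 h than in basal cells over the set. Its median difference was 1.03 on the log2(tags + 1) scale, where all 77955 regions had -0.02, and it was above 0 in 1569 of the 1684 regions. In intergenic members, where no annotated gene body lies, the median was 1.11 (554 of 597 above 0), in introns 0.96 and in promoters 1.12, while the medians of all regions in these classes were -0.03, -0.03 and -0.01. Per library, the median over the set was 18.7, 8.83, 5.90 and 6.08 tags in basal cells, 14.7 at 1 h, 17.8 and 19 at 6 h, and 14, 14.6 and 7.70 at 24 h. The first basal library lay inside the 6 h range and the other 3 below it. A fit blocked on replicate number lowered the median difference over the set from 1.03 to 0.50 (all regions -0.16). In that fit 1359 members were above 0.

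**Figure D3:**
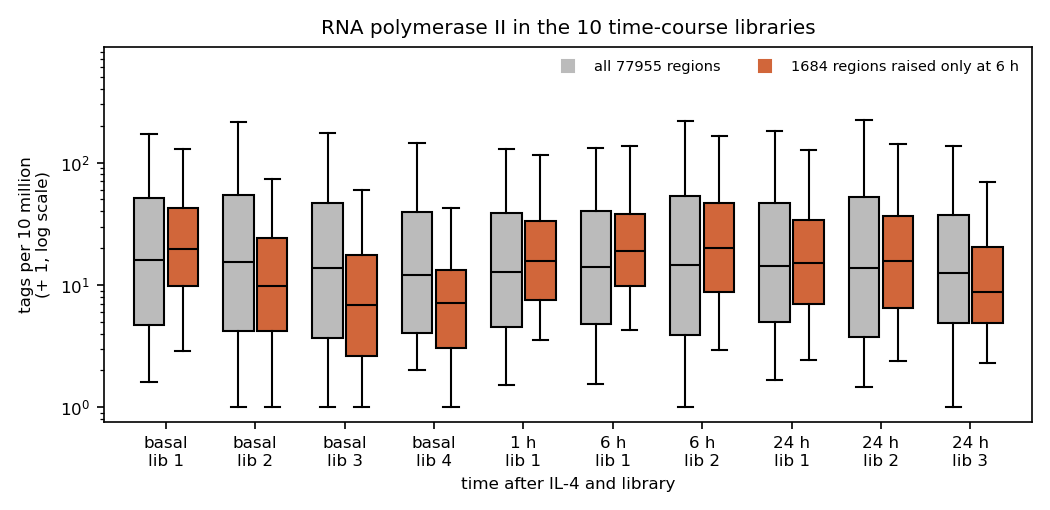
Pol II in each of the 10 time-course libraries (tags per 10000000 plus 1, log axis) over all 77955 regions (grey) and the 1684 regions with H3K27ac raised only at 6 h (orange), with boxes and whiskers as for H3K27ac. The grey medians run from 11.1 to 15 tags, while the orange ones run from 5.90 to 19, with basal libraries 2, 3 and 4 and the third 24 h library low.

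In limma across all regions, 23 members passed an adjusted p of 0.05 with more Pol II at 6 h (0.428% of all regions did) and none with less (0.137%). At an unadjusted p of 0.05 the numbers were 523 and 0 (3993 and 3978 of all 77955 regions). The count turned on the first basal library: without it, 296 members were called higher (2.01% of all regions), with a median difference of 1.34. Leaving out basal library 2, 3 or 4 gave 8, 6 and 3 calls, and leaving out the first or the second 6 h library 0 and 1. Over all 77955 regions, leaving out basal library 2, 3 or 4 gave 152, 125 and 98 calls higher. Of the 874 regions that do not need the second 1 h H3K27ac library, 16 were called with all libraries and 145 without the first basal Pol II library. By the fold rule for Pol II (2.5-fold with at least 8 tags in the larger mean), 253 members rose at 6 h (2.52% of all regions), 164 at 1 h (2.76%), 84 at 24 h (1.79%), and 1 fell at 6 h (2.57%). Without the first basal library the 6 h count was 661 (4.64%). Both 6 h libraries exceeded all 4 basal libraries in 483 members (7.78% of all regions).

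The largest Pol II rise was measured beside Arg1, the arginase gene of alternative activation, in a window in the last exon of the adjoining gene Med23 (chr10:24912282-24913282), 14702 bp downstream of the Arg1 start. Pol II read 10.6, 3.21, 5.36 and 7.09 tags in basal cells, 460 at 1 h, 906 and 167 at 6 h, and 20.0, 169 and 18 at 24 h. Every IL-4 library exceeded every basal one, and the difference at 6 h was 5.78 ± 0.76 (log2, SE, adjusted p = 0.00199). H3K27ac in the same window was low throughout (21.6 and 11.6 tags at 6 h over 4.07 and 2.14). ChIP does not tell strands apart, so Pol II on the 2 genes cannot be separated there. At the Ccl7 promoter Pol II went from 25.6, 40.1, 18.2 and 14.2 tags to 231 at 1 h and to 335 and 468 at 6 h (4.06 ± 0.67, adjusted p = 0.0115), and it stayed at 368, 435 and 43.6 at 24 h. At the distal Pmch region Pol II went from 0 to 2.5 tags in basal cells to 34.5 and 10.7 at 6 h (3.53 ± 0.61, adjusted p = 0.0144). Intron 1 of Mrc1 had 48.0, 85.9, 110 and 74.9 tags in basal cells, 1150 at 1 h and 744 and 307 at 6 h (2.63 ± 0.47, adjusted p = 0.0185), and a second member in Mrc1 also passed. At Atp6v0d2 the values were 104, 57.8, 44.5 and 45.6 in basal cells, 320 and 437 at 6 h, and 455, 285 and 212 at 24 h (2.64 ± 0.43, adjusted p = 0.0106). At Itgb3, the integrin beta 3 gene, 4 members passed, with differences from 2.07 to 2.93. Among the gene lists, 4 members of alternative activation (at Arg1, Tgm2 and Mrc1), 1 of the inflammatory list (Ccl7) and none of the other 5 lists were called, and the list medians ran from 0.53 for AP-1 and immediate-early factors to 1.56 for alternative activation. The Socs3 intron did not pass, with 155, 28.9, 8.58 and 11.1 tags in basal cells and 51.5 and 65.8 at 6 h.

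Pol II did not separate 6 h from 24 h in the test. Limma called 0 members higher (0.0% of all regions) and 0 lower (0.0%) at 6 h than at 24 h. The counts by edgeR and by DESeq2 were also 0. At an unadjusted p of 0.05 in limma they were 68 and 0 (472 and 654 of all 77955 regions). The median difference was 0.51, where all regions had 0.00, and both 6 h libraries exceeded all 3 24 h libraries in 468 members (7.53% of all regions). Without the third 24 h library the median was 0.28 (all regions -0.08), and with the replicate number as a block 0.25 (-0.07). At 24 h against basal, the median difference was 0.43, and 12 members were called higher (0.503% of all regions) and none lower (0.174%). The replicate numbers of these libraries went together, and with the number as a block 56 were called higher (1.27%), with a median of 0.25 (all regions -0.08). Of the 874 regions, 7 were called higher at 24 h without the block. Leaving out the first basal library gave 78 members called at 24 h (892 of all regions). Without basal library 2, 3 or 4 the counts were 2, 3 and 2 (186, 167 and 150 of all). Without 24 h library 1, 2 or 3 they were 0, 1 and 23 (51, 106 and 535 of all). The median was 0.76 without the first basal library, 0.26 and 0.25 without the third or the fourth, and 0.67 without the third 24 h library.

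STAT6 and EGR2 peaks were read from 1 list per time, each made by the authors from replicate libraries. A STAT6 peak touched 13.9% of the members in basal cells, 37.6% at 1 h, 40.3% at 6 h and 42.2% at 24 h (exact 95% binomial intervals 12.3 to 15.6, 35.3 to 40.0, 38 to 42.7 and 39.8 to 44.6, which cover counting error only). All regions had 36.4%, 29.3%, 30.5% and 44.4%. The members therefore had fewer STAT6 peaks than all regions before IL-4 and more at 1 and 6 h. By 24 h their share had not fallen, but that of all regions had risen to 44.4%, inside the interval of the members. A STAT6 peak present at 6 h and absent in basal cells was found in 480 members (28.5%, against 7.99% of all regions), and one present at 6 h and absent at 24 h in 151 (8.97% against 3.03%). The first pattern was found in 30.5% of regions raised only at 1 h, 24.6% only at 24 h and 56.3% at 1, 6 and 24 h. For the second pattern these sets had 10.3%, 0.837% and 5.76%. Over the 874 regions the 2 patterns were found in 23.5% and 5.95%. Regions raised at 1, 6 and 24 h had STAT6 at 6 h in 71.7%, and those raised only at 24 h in 39.4%, the same range as the members. Over the 874 regions the 1 h share was 30.9% (27.8 to 34.1), an interval that covers the 29.3% of all regions, so the higher share at 1 h was not seen there, and the 6 h share was 36.2% (33.0 to 39.4). List sizes, 30589, 24376, 23884 and 39537 peaks in order of time, move with these shares, and their part in them was not tested.

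**Figure D4:**
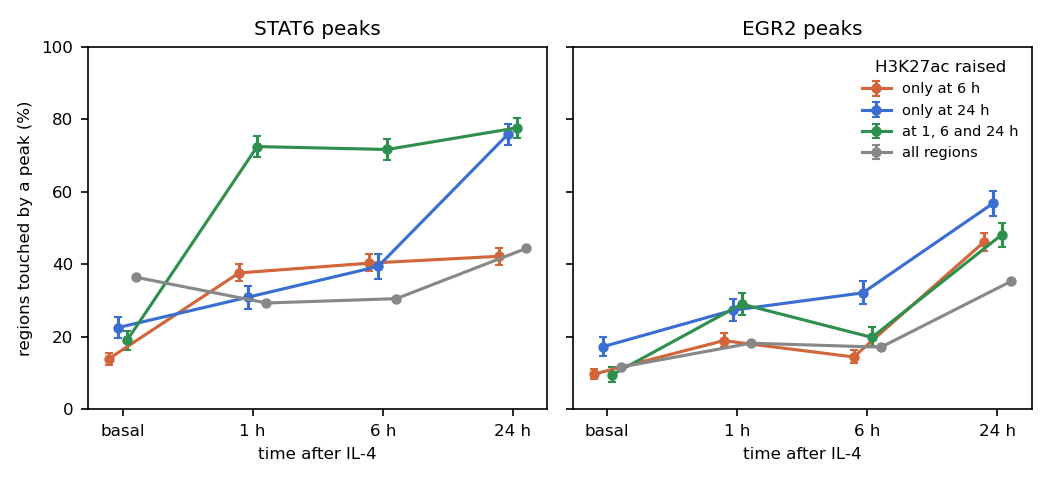
Share of regions touched by a STAT6 peak (left) or an EGR2 peak (right) at each time for the regions with H3K27ac raised only at 6 h (orange), only at 24 h (blue), at 1, 6 and 24 h (green) and for all regions (grey). Bars are exact 95% binomial intervals. The orange STAT6 line rises from 13.9% to 37.6% at 1 h and then stays near 40%, and the orange EGR2 line is highest at 24 h (46.1%).

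EGR2 peaks touched 9.62% of the members in basal cells, 18.9% at 1 h, 14.4% at 6 h and 46.1% at 24 h, where all regions had 11.6%, 18.2%, 17.1% and 35.3%. At 6 h the members were thus slightly below all regions, and at 24 h above them, when 31.9% held an EGR2 peak that was absent at 6 h (19% of all regions). Such a peak was also found in 29.6% of regions raised at 1, 6 and 24 h, 25.8% only at 24 h and 11.6% only at 1 h. The EGR2 lists held 8437, 13562, 13072 and 29407 peaks in order of time, which moves with these shares, and the part of list size in them was not tested. Examples are the Kcnd3 promoter, Dok7 and Jak1 regions, where an EGR2 peak was listed only at 24 h. PU1 peaks were fewer than elsewhere in basal cells (39.3% against 62.3%) and at 24 h (54.3% against 65.1%). CEBPb peaks went from 17.4% (20.8% of all regions) in basal cells to 44.8% (38%) at 24 h, and PPARg peaks from 3.21% (8.28%) to 34.3% (37.3%). From basal to 24 h the CEBPb lists went from 18043 to 37499 peaks, the PPARg lists from 7627 to 39088 and the PU1 lists from 85916 to 90308, and the part of list size in these shares was not tested either. Neither STAT6 nor EGR2 was listed at 1, 6 or 24 h at 31.0% of the members and 39.8% of all regions.

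In the central 200 bases, AP-1 and C/EBP letters were found in a larger share of the members than of all regions, and in shares like those of the regions raised at 1, 6 and 24 h, with overlapping intervals. TGANTCA, which AP-1 dimers bind, was found in 27.7% of the members (25.5 to 29.9) and 16.8% of all regions, and in 28.5% of the 874. Regions raised at 1, 6 and 24 h held it in 24.5% (21.7 to 27.4), those raised only at 1 h in 23.2% (17.9 to 29.1) and those raised only at 24 h in 20.9% (18.2 to 23.9). The C/EBP letters TTGCNNAA were found in 18% (16.2 to 19.9) against 12%, and in 15.4% of the 874. The shares were 17.5% (15.1 to 20.2) in regions raised at 1, 6 and 24 h, 14.6% (10.3 to 19.8) in those raised only at 1 h and 13.3% (11.1 to 15.8) in those raised only at 24 h. The STAT6 letters with 4 bases between TTC and GAA were found in 9.92% (8.53 to 11.4) against 6.04%, far fewer than in the regions raised at 1, 6 and 24 h (35.4%) or only at 1 h (31.3%). With 3 bases between them the shares were 7.36% and 5.63%. The PU.1 letters GAGGAAG were fewer, 15.6% against 20.8%, and the EGR letters GCGTGGG were in 2.61% against 2.83%. In the 283 members with either STAT6 spacing a STAT6 peak was listed at 6 h in 58.0% (52.0 to 63.8), and in the 1401 without in 36.8% (34.2 to 39.3), where all regions had 48.3% with and 28.2% without. In the 44 members with EGR letters an EGR2 peak was listed at 24 h in 81.8% (67.3 to 91.8), against 45.1% of the other 1640, and all regions had 72.0%, inside that interval, and 34.3%. A match is a description of the letters, and their absence from this window says nothing about binding. Base composition differed between the sets as given above, and its part in these shares was not tested.

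In the other strains H3K27ac was measured only in basal cells and at 24 h. They show where the matching chromatin stood at 24 h, and whether it rose at 6 h there was not measured. The strain tables hold other regions, and a member was matched when a region centre lay within 500 bp: 776 in BALB, 950 in NOD, 936 in PWK and 824 in SPRET. The median difference at 24 h was 0.55, 0.60, 0.43 and 0.41 (log2), where all regions of the tables had -0.30, -0.20, -0.18 and -0.09. Limma called 21 members higher in BALB (1.6% of all its regions), 0 in NOD (0.0566%), 8 in PWK (0.487%) and 11 in SPRET (0.994%). None was called lower in BALB (0.653%), NOD (0.0%), PWK (0.0482%) or SPRET (0.192%). In NOD, 130 members were higher and 3 lower at an unadjusted p of 0.05 in limma (3813 and 4765 of all 68932 regions). There edgeR called 1 member higher and DESeq2 19 (89 and 919 of all). Without a block, the shares called in BALB, PWK and SPRET were within 2-fold of those of all regions. Same-numbered strain libraries deviated together (r = 0.435 in BALB, 0.492 in NOD, 0.441 in PWK and 0.261 in SPRET). With the replicate number as a block, 80 members in BALB, 241 in NOD, 169 in PWK and 101 in SPRET were called higher. All regions then had 1949 of 54022, 4458 of 68932, 2753 of 60175 and 2367 of 54755. Members called lower numbered 0, 9, 3 and 2 (2193, 9281, 2895 and 1483 of all). By the fold rule 49 (2.84% of all), 90 (3.24%), 121 (3.1%) and 61 (2.64%) rose in BALB, NOD, PWK and SPRET. Regions outside the set were not matched between strains, so the next counts have no share over all regions beside them. Of 435 members matched in all 4 strains, 239 had a 24 h mean above basal in each and 17 below in each. Single libraries moved these results. Leaving out 1 left a single library in its group, so only the median differences of those fits are given. They ran from 0.01 to 1.08 in BALB, 0.08 to 1.13 in NOD, 0.09 to 0.87 in PWK and 0.25 to 0.57 in SPRET. The medians of all regions ran from -0.65 to 0.05, -0.31 to -0.05, -0.28 to -0.03 and -0.18 to 0.05 in the same order. Over the part of the 874 matched in each strain, the calls were 14 of 417, 0 of 490, 4 of 502 and 4 of 397.

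The 2 libraries of a group differed in most strains. The member medians were 49.0 and 22.6 tags at 24 h over 31.6 and 17 in BALB, 41.2 and 25.3 over 33.2 and 15.1 in NOD, 73.4 and 43.0 over 46.4 and 30.5 in PWK, and 48.5 and 37.7 over 29.5 and 31.6 in SPRET. The first 24 h library was the higher in every strain, and the groups overlapped in all but SPRET. Of the 38 members called in at least 1 strain, 2 were called in 2 strains. Intron 5 of Rora (chr9:69366760-69367760) read 0 and 0.6 tags in basal BALB cells and 15.1 and 13.8 at 24 h (3.61 ± 0.69, adjusted p = 4.47e-05), and in SPRET 14.5 and 65.8 rose to 175 and 155 (2.36 ± 0.51, adjusted p = 0.0305). In C57 it had 0.68 and 0.71 basal tags, 22.3 and 18.3 at 6 h and 8.49 and 9.84 at 24 h. Intron 3 of the phosphodiesterase gene Pde4d (chr13:109297805-109298805) rose from 10.3 and 8.61 to 113 and 80.2 tags in PWK (3.21 ± 0.52, adjusted p = 0.0094) and from 23.1 and 32.3 to 257 and 81.8 in SPRET (2.37 ± 0.46, adjusted p = 0.0168). At the Pmch region PWK went from 0 in both basal libraries to 135 and 28.6 tags (adjusted p = 0.00236). At Tgm2 SPRET went from 5.13 and 5.27 to 93.5 and 37.7 tags (3.29 ± 0.51, adjusted p = 0.00357), where C57 had reached 17 and 14.4.

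H3K4me2 and H3K4me3, marks of primed and of active regulatory DNA, were compared in C57 at 24 h for the 1481 members matched in that table. H3K4me2 medians were 27.8 and 23.2 tags in basal cells and 29.4 and 18.3 at 24 h, with the groups overlapping. Limma called 2 higher (0.179% of all regions) and 2 lower (0.0576%), and the median difference was -0.18 where all regions had -0.69. The sign of the former depended on the scaling: it was 0.48 after median-ratio scaling, which set the median of all regions to -0.01. Without the first 24 h library 6 members were higher and 345 lower, as were 34426 of all 67742 regions, with a median of -0.54 (all regions -0.95). Without the second 24 h library 0 were called and the median was 0.16 (all regions -0.39), and without the first basal library 1 was higher. H3K4me3 was low, with medians of 1.46 and 1.46 tags in basal cells and 3.67 and 3.12 at 24 h, so both 24 h medians were above both basal ones. Its median difference was 0.63 (all regions 0.11). Limma called 0 higher (0.0%) and 0 lower (0.0%), with 280 and 14 at an unadjusted p of 0.05 (5160 and 8072 of all 67742 regions). By edgeR and DESeq2, 12 and 17 members were called higher (166 and 143 of all).

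EGR2 tags were tabulated at EGR2 peak sites, 727 of which lay in 721 of the members. Their medians were 19.7 and 24.2 tags in basal cells, 6.32 and 27 at 1 h, 14 and 40.2 at 6 h, and 42.2 and 32.6 at 24 h. The 6 h libraries lay on either side of the basal ones, so no difference could be read at 6 h. Limma called 0 sites higher (0.0%) and 0 lower (0.0%) at 6 h, with 11 and 3 at an unadjusted p of 0.05 (1063 and 106 of all 30675). The median difference of 0.03 (all sites 0.17) changed sign with the library left out. Without the second 6 h library 10 sites were lower (111 of all 30675) at a median of -0.64, and without the first 1 was higher (20 of all) at a median of 0.77. Both 24 h medians exceeded those of the other libraries except the second 6 h library, which lay between them.

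H3K27ac in Egr2flfl and LyzMCreEgr2flfl BMDMs was tabulated at EGR2 sites induced at 24 h, and 168 of these 4677 sites lay in 167 members. H3K27ac does not itself show that Egr2 was deleted. The paper reports efficient Egr2 deletion in the BMDMs of this cross, which was not checked here. The median at the 168 sites was 32.8 and 28.9 tags in basal Egr2flfl cells, 57.3 and 55.2 in Egr2flfl at 24 h, 22.1 and 21.9 in basal LyzMCreEgr2flfl cells, and 27 and 25 in LyzMCreEgr2flfl at 24 h. The genotypes did not overlap at either time. At 24 h limma called 88 of the 168 sites lower in LyzMCreEgr2flfl (23.2% of all sites) and 0 higher (1.41%). The median difference was -0.95, where all sites had -0.50. At an unadjusted p of 0.05, 103 sites were lower and 1 higher (1577 and 153 of all 4677). After median-ratio scaling, which brings all sites to -0.03, 49 were lower (10.6%) and 7 higher (11.5%), with a median of -0.42. With 1 of the 24 h libraries left out, the median difference was -1.01 to -0.93 (all sites -0.55 to -0.47). All 4677 sites carried less H3K27ac than the 168, with medians of 30.1 and 30.2 tags in Egr2flfl at 24 h. With a filter of 16 tags, 89 of 162 sites in members and 937 of all 3031 were lower. The part of the H3K27ac level in these counts was not tested. Over the part of the 874 with such a site, 42 of 85 were lower. Both Egr2flfl libraries exceeded both LyzMCreEgr2flfl libraries at 128 sites at 24 h (51.7% of all sites) and at 96 sites already in basal cells (32.5%). Both 24 h libraries exceeded both basal ones at 124 sites in Egr2flfl (53.0%) and at 74 in LyzMCreEgr2flfl (33.8%), and whether this response differed between the genotypes was not tested.

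**Figure D5:**
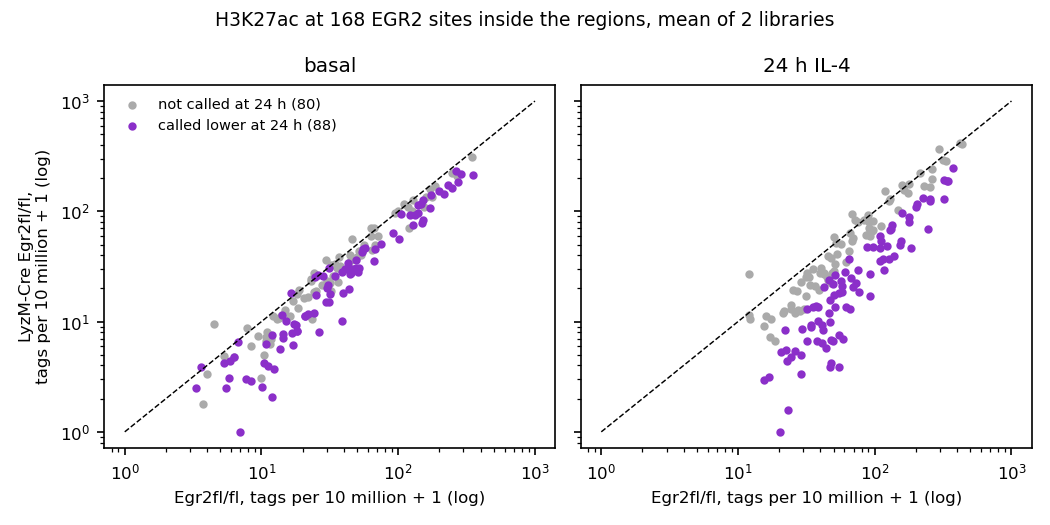
H3K27ac at the 168 induced EGR2 sites inside the regions, in Egr2flfl (x) and LyzMCreEgr2flfl (y) BMDMs, as means of 2 libraries (tags per 10000000 plus 1, log axes), in basal cells (left) and at 24 h of IL-4 (right). Each point is a site, purple where limma called it lower at 24 h (88) and grey where not (80), and the dashed line marks equal levels. Purple points lie below the line at 24 h, and most also lie below it in basal cells.

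Among these sites, the one 1964 bp upstream of Dok7, in a region whose H3K27ac in C57 was 0 and 0.71 tags in basal cells, 26.2 and 36.5 at 6 h and 11 and 13.8 at 24 h, read 49.2 and 42.4 tags in Egr2flfl at 24 h and 1.04 and 4.64 in LyzMCreEgr2flfl (-3.78 ± 0.56, adjusted p = 0.000336). In basal cells it read 14.5 and 7.47 against 1.00 and 1.12. The site upstream of Slc7a11 read 294 and 350 tags against 136 and 118 at 24 h (-1.33 ± 0.20, adjusted p = 0.000343), and 251 and 239 against 147 and 175 in basal cells. Sites near Tex37 and Rel, an NF-kB subunit gene, were picked after their values were seen: they fell from 54.3 and 52.7 to 1.04 and 4.64 tags and from 53.3 and 43.7 to 8.31 and 2.90. At Tnfaip3, Klf4, Itgb3 and Bcl6 the sites did not pass, with differences of -0.09, -0.47, -0.53 and -0.32 and standard errors of 0.20, 0.24, 0.31 and 0.40.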

How the data were processed

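ChIP-seq libraries of BMDMs were grouped by strain or genotype, antibody and time as the labels give them. The authors aligned reads with Bowtie2, placed them on mm10, made HOMER tag directories and deposited tags in 1000 bp windows as signal normalized to 10000000 tags per library, beside peak lists with a score from replicate concordance, 1 list per group. In the tables, 4 value columns matched no sample and were not used. Members and gene lists were chosen with earlier results of these data known. log2(tags + 1) was fitted over all regions of a table with limma 3.58.1 (R 4.3.3, trended variance, Benjamini-Hochberg adjusted p under 0.05), without a replicate block. As alternatives, edgeR 4.0.16 and DESeq2 1.42.0 were run on recovered whole reads. Limma and edgeR, but not DESeq2, were first tested on data simulated for Pol II at 6 h against basal and for BALB. Values were whole reads in 100% of cases within 0.1 read. Contrasts with the basal libraries share them. A peak counted with 1 base of overlap, and letters were searched on both strands of the central 200 bp. Named regions were those with the largest H3K27ac folds whose 6 h libraries were above the rest, the highest 6 h means, the largest Pol II rises called, up to 4 genes per list by 6 h mean, 3 on each side of the threshold, and up to 4 called in most strains, of which some are not reported here. Same-numbered Pol II libraries in basal cells and at 24 h deviated together (r = 0.109, 0.226 and 0.192 over regions). Second libraries at 6 h did so with those in basal cells (0.254) and at 24 h (0.321), and first libraries less (0.0709 and 0.0526). Blocked values are therefore given for each Pol II contrast. Same-numbered H3K27ac libraries of the other strains also deviated together (0.261 in SPRET to 0.492 in NOD), so their blocked counts are given as well. Tables of other strains were normalized separately and tested each on its own. Authors' fold or p columns were not used.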

Additional observations from a re-analysis of the deposited data

Results flagged for a closer look

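Of 53 groups of 4 libraries checked for a library far from the rest, 3 passed Dixon's 95% critical value for 4 libraries, and chance alone flags about 1 group in 20. All 3 were Pol II in basal cells with the first library high. At the Socs3 intron the libraries read 155, 28.9, 8.58 and 11.1 tags (gap over range 0.86104). Upstream of Acsl1 they read 22.5, 2.41, 0 and 1.01 (0.8927), and in the last exon of 4930564D02Rik 9.36, 1.60, 0.54 and 0 (0.82906, barely past it). Over the whole set the medians of the 4 libraries had a gap over range of 0.771, under that value.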

How the results depend on the processing

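The size of the set moved with its rule: 1457 regions with a pseudocount of 5, 1317 with a minimum of 32 tags, 2315 with none, 2142 at 2-fold, 1243 after median-ratio scaling (791 shared with the 1684), and 875 to 2281 with 1 library left out. Counts of members called higher changed as follows, with the count over all regions tested in brackets, and the cause was not tested. Pol II at 6 h against basal gave 41 after median-ratio scaling (475 of 77955) and 94 by DESeq2 (974). With 1 basal library left out it gave 3 to 296 (98 to 1564). Pol II at 24 h against basal gave 31 after median-ratio scaling (597), 61 by DESeq2 (1051) and 21 by edgeR (445). With 1 library left out it gave 0 to 78 (51 to 892). BALB gave 9 with a filter of 16 tags, 38 after median-ratio scaling, 40 by DESeq2 and 3 to 27 with 1 library left out. NOD gave 1 with the filter, 1 by edgeR, 19 by DESeq2 and 0 to 71. PWK gave 4 after median-ratio scaling, 18 by edgeR, 25 by DESeq2 and 0 to 43, and SPRET 24 with the filter, 38 by edgeR, 29 by DESeq2 and 0 to 3. H3K4me2 gave 0 with the filter (68 of 53816), 5 after median-ratio scaling (270 of 67742) and 1 by edgeR (80). H3K4me3 gave 12 by edgeR (166 of 67742) and 17 by DESeq2 (143). Sites lower in LyzMCreEgr2flfl numbered 49 after median-ratio scaling and 50 to 69 with 1 library left out. Medians that changed sign were those of H3K4me2 (0.48 after median-ratio scaling, 0.50 by DESeq2, 0.16 without the second 24 h library, and -0.54 to 0.16 over all libraries left out) and of EGR2 tags (-0.20 after median-ratio scaling, -0.64 without the second 6 h library, -0.13 without the first basal library, and -0.64 to 0.77 over all left out). STAT6 peaks at 6 h touched 36.8% of members in the central 200 bp and 22.3% in the upper part of the list by score, and EGR2 peaks 12.1% and 7.60%. The shares of all regions under these settings are not given here, so these values do not compare the members with other regions. Count tests were not run on the EGR2 site and Egr2 genotype tables. A library left alone in its group was assumed to vary like the others.

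With the replicate number as a block, 33 members were called higher for Pol II at 6 h (493 of all 77955 regions) and 56 at 24 h (989) against basal, and 0 at 6 h against 24 h (0). In BALB 80 members were higher (1949 of all 54022 regions higher, 2193 lower), in NOD 241 higher and 9 lower (4458 and 9281 of 68932), in PWK 169 and 3 (2753 and 2895 of 60175), and in SPRET 101 and 2 (2367 and 1483 of 54755). H3K4me2 gave 7 higher (249 of 67742), H3K4me3 183 higher and 18 lower (2681 and 8845), and 100 sites were lower in LyzMCreEgr2flfl (1333 of 4677). Labels and methods do not say whether a shared number marks shared mice or days. Pair correlations ran from -0.0728 (EGR2) to 0.492 (NOD), with 0.435 in BALB, 0.441 in PWK and 0.261 in SPRET.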
